A study of Mus musculus with 165 samples.

Results

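The Fc receptor genes of the mouse were followed in PUER cells over both courses of the series: *Fcgr1*, *Fcgr3* and *Fcgr4*, which encode activating receptors for IgG, *Fcgr2b*, the inhibitory IgG receptor, *Fcer1g*, the signaling chain that the activating receptors share, and *Fcer1a* and *Ms4a2*, which encode the alpha and beta chains of the high-affinity IgE receptor. They were chosen by their symbols and are 7 of 36255 genes in the table. PUER is a line of myeloid progenitors from mice null for PU.1 (Spi1-/-), which the labels trace to bone marrow and the study to fetal liver in one place and to bone marrow in another, and in which PU.1 is supplied as a fusion to the part of the estrogen receptor that binds ligand and becomes active when 4-hydroxy-tamoxifen (OHT) is present. All groups carry the null alleles and the fusion, so there is no wild-type cell in the series, and all come from one line. Undifferentiated cells were kept in IL3 at 5 ng/ml without OHT (3 libraries). Macrophage differentiation (IL3-OHT, 81 libraries) was started from them with 200 nM OHT in IL3. For neutrophil differentiation (GCSF-OHT, 78 libraries) IL3 was replaced by GCSF at 10 ng/ml for 48 h (GCSF 0h, 3 libraries, before OHT) and 100 nM OHT was then added. Cytokine, OHT dose and pre-treatment thus change together between the courses and cannot be told apart. There were 27 time points from 1h to 168h in each course, with 3 replicates each except GCSF-OHT 96h, 112h and 152h, which had 2. Cells were detached with trypsin at time points after 24h, and medium and OHT were renewed at 40h, 88h and 136h. Per the study each time point had a plate of its own, so plate and time cannot be told apart.

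Fc receptors bind the constant part of antibodies and let phagocytes and granulocytes respond to coated particles. The activating receptors recruit the gamma chain encoded by *Fcer1g*, whose ITAM is phosphorylated by Src family kinases and then binds the kinase SYK. The inhibitory receptor carries an ITIM instead, which recruits the phosphatase SHIP (*Inpp5d*), so the balance of activating and inhibitory receptors sets how readily a cell responds. The IgE receptor uses the same gamma chain and is best known from mast cells and basophils, whereas *Fcgr1* is typical of monocytes and macrophages and *Fcgr3* and *Fcgr4* are found on macrophages and neutrophils.

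Levels are normalized counts, that is reads divided by the size factor of the library. The libraries held 14600246 to 33147945 reads on genes. At this depth 3 reads, used here as the floor of detection, were worth 1.96 to 5.51 normalized counts, for counting error only. RNA of the null gene *Spi1* was present, for example 9990 ± 245.8 (SD, n = 3) in undifferentiated cells and 11121 ± 462.6 (n = 3) at GCSF-OHT 168h, and since the fusion carries its sequence these values do not check the knockout. In bulk RNA, fewer cells expressing a gene and less RNA per cell cannot be told apart. Apart from 1 alternative fit with all 56 groups, no test uses IL3-OHT 96h or 144h, for which only levels are given.

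*Fcgr2b*, *Fcgr4*, *Fcgr3*, *Fcer1g* and *Fcer1a* lie in this order on chromosome 1, and *Fcgr1* and *Ms4a2* lie elsewhere (GENCODE M21 on GRCm38, all protein-coding). *Fcgr2b* (ENSMUSG00000026656) spans chr1:170958617-170976547 on the minus strand, *Fcgr4* (ENSMUSG00000059089) spans chr1:171018920-171029761 on the plus strand and *Fcgr3* (ENSMUSG00000059498) spans chr1:171051174-171064935 on the minus strand. The 3 IgG receptor genes together cover 106.3 kb. *Fcer1g* (ENSMUSG00000058715) lies 164636 bases further at chr1:171229572-171234365, and *Fcer1a* (ENSMUSG00000005339) another 1986918 bases on at chr1:173221284-173227214, both on the minus strand. *Fcgr1* (ENSMUSG00000015947) spans chr3:96282909-96293969 and *Ms4a2* (ENSMUSG00000024680) spans chr19:11615523-11623719, both on the minus strand. *Fcgr2b* and *Fcgr3* are closely related in sequence, and 233 of the 1345 stretches of 31 letters in *Fcgr3* transcripts (17.3%) also occur in *Fcgr2b*, where they make up 6.42%. The assignment of reads from these stretches to one gene or the other is uncertain. With all other genes together *Fcgr2b* shares 12.6% of its stretches, *Ms4a2* 4.07% and *Fcgr4* 1.39%, while *Fcgr1*, *Fcer1g* and *Fcer1a* share none.

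Since the courses turn on the activity of PU.1, which binds a core of GAGGAA or similar letters, the promoters of the members were searched for GAGGAA and its complement TTCCTC in the window from before the start to 50 bases after it, 300 bases in all (RefSeq, GRCm38.p6). The promoters of the 3 activating IgG receptors are shown because each held these letters within 60 bases of the start, at -55 in *Fcgr1*, at -6 in *Fcgr3* and at -22 in *Fcgr4*, counted from the start. For *Fcgr3* another RefSeq start puts the same letters at -15, and positions given here are for the window shown. Its RefSeq windows lie inside the GENCODE span of the gene. The window of *Fcgr2b* is shown because it did not hold them. It also lies inside the GENCODE span of its gene, and the sequence at the GENCODE start of *Fcgr2b* was not searched. Whether these letters stand there is thus not known. The promoter of *Ms4a2* is shown for its 3 copies of AGATAA or its complement TTATCT, a motif of GATA factors, at -224, -37 and -11. Capitals mark GAGGAA or TTCCTC in the IgG receptor genes and AGATAA or TTATCT in *Ms4a2*. Each is written 5′ to 3′ on the strand of the gene.
Fcgr1, chr3:96293920-96294219, minus strand: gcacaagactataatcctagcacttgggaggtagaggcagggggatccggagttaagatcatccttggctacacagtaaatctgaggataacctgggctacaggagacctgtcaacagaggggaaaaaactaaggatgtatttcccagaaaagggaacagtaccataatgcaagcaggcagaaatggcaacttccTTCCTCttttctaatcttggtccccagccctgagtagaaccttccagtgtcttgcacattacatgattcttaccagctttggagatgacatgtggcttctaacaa
Fcgr3, chr1:171059354-171059653, minus strand: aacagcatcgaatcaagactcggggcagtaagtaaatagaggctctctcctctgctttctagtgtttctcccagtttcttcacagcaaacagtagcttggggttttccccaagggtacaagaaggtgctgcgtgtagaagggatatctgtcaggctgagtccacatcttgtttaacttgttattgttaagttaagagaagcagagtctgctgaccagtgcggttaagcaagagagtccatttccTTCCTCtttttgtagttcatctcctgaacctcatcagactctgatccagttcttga
Fcgr4, chr1:171018676-171018975, plus strand: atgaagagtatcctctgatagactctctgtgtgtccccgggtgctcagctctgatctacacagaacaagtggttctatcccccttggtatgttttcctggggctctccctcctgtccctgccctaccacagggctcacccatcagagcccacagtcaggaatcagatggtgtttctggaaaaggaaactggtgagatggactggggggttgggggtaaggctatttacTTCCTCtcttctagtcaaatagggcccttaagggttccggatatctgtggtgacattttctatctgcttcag
Fcgr2b, chr1:170976022-170976321, minus strand: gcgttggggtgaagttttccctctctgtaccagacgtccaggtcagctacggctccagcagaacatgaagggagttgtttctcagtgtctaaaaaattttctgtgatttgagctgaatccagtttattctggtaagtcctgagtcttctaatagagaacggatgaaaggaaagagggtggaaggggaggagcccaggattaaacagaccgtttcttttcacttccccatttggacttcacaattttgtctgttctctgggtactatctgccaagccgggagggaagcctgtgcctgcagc
Ms4a2, chr19:11623670-11623969, minus strand: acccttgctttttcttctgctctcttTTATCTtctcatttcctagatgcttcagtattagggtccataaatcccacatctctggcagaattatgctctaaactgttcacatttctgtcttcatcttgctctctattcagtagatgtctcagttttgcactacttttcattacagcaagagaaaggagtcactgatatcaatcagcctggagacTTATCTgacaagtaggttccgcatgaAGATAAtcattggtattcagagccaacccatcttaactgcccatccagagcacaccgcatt

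Of 32544 mouse promoters of this length, 28.1% held GAGGAA on either strand and 6.11% held it in the 60 bases before the start. The plan named only the whole window. The width of 60 bases just takes in the farthest match in the activating receptors, so the 6.11% is no test of these matches. AGATAA was found in 11.2% of them. The promoters of *Fcgr1* and *Fcgr3* had the run ttccTTCCTCtttt of 14 letters in common, starting at -59 in the former and at -10 in the latter, the longest that this pair shared. GAGGAA was not in the windows of *Fcer1g* and *Ms4a2*, and in *Fcer1a* it stood farther upstream than in the IgG receptors. The window of *Fcer1a* also held TTATCT, 1 copy at -92. A C/EBP motif, TTNCNNAA or its complement TTNNGNAA, stood in the window of *Fcgr3* at -146 and -28 and in those of *Fcgr4* (at -78) and *Fcer1a*, against 40.7% of all promoters. No AP-1 motif TGANTCA was found in the members, against 7.79% of all promoters. These matches describe letters and are not evidence of binding.

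*Fcgr3* was the most abundant member. Per kb of spliced length, its level in undifferentiated cells was 869.6, followed by *Fcer1g* with 323.7, *Fcgr4* with 73.8, *Fcgr2b* with 50.9, *Ms4a2* with 2.97 and *Fcgr1* with 0.132. At IL3-OHT 168h the order of the 4 highest was the same, with 1832 for *Fcgr3*, 375.5 for *Fcer1g*, 91.7 for *Fcgr4* and 54.99 for *Fcgr2b* per kb, and *Fcgr1* with 1.84 stood beside *Ms4a2* with 1.61. At GCSF-OHT 168h the corresponding levels per kb were 2162, 188.7, 130.98 and 35.1, with 17.2 for *Ms4a2* and 0.237 for *Fcgr1*. Length was the mean over the coding transcripts of a gene, which run from 1084 to 3544 bases in *Fcgr2b*. The order of *Fcgr4* and *Fcgr2b* in undifferentiated cells and at IL3-OHT 168h thus depends on the form assumed. *Fcer1a* was not detected at this depth. It had 2 reads in 1 library of IL3-OHT 160h and none in any other library. It did not pass the filter of a normalized count of at least 5 in 1 library or more, so 6 of the 7 members were among the 17414 genes tested.

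**Figure D1:**
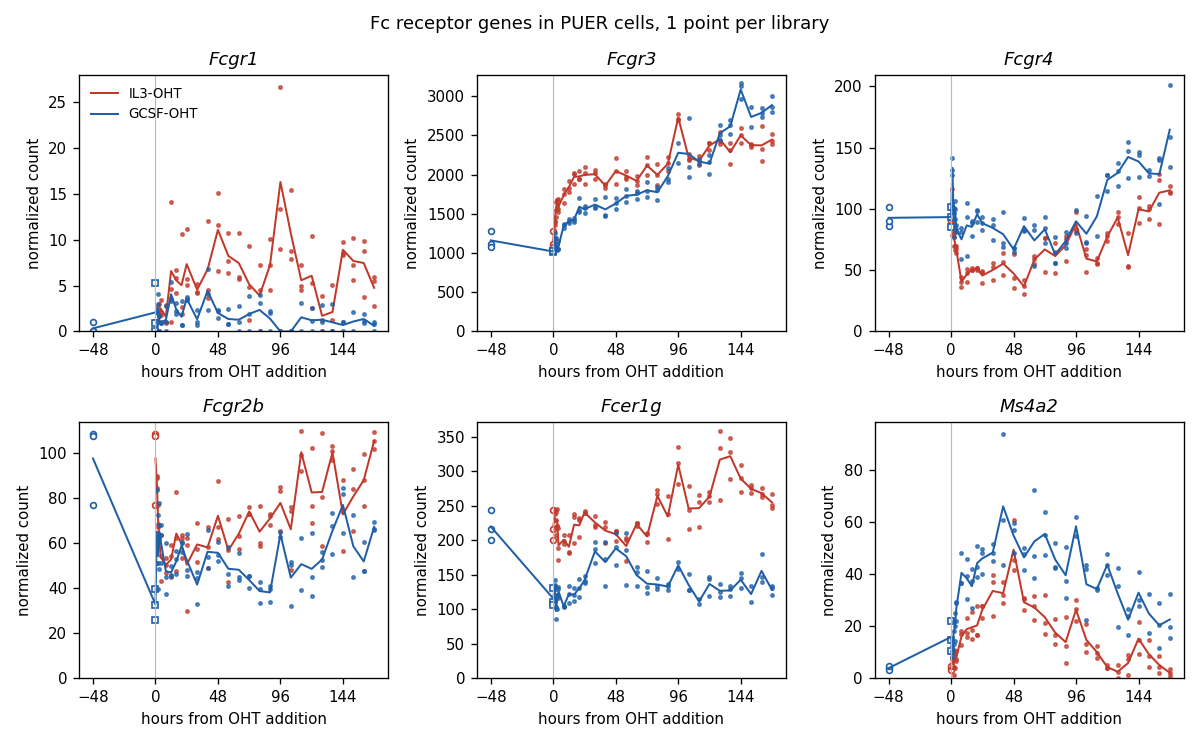
Normalized counts of the 6 Fc receptor genes that were tested, against hours from OHT addition, with 1 point per library and lines through the means of each time point (IL3-OHT red, GCSF-OHT blue). Open circles are the undifferentiated libraries, drawn at 0 for IL3-OHT and 48 h before OHT for GCSF-OHT, and open squares are GCSF 0h. *Fcgr3* climbed in both courses, *Fcer1g* stayed lower in GCSF-OHT, and *Ms4a2* peaked at 48h in IL3-OHT and at 40h in GCSF-OHT.

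Which members were called, and in which direction, changed with the comparison. DEGs were called by limma's moderated test on log2(normalized count + 1) across all genes, with thresholds of 0.05 for the adjusted p and 0.58 for the log2 fold change in either direction, and SE is the standard error of the log2 fold change. After the GCSF pre-treatment alone 3 of the 6 tested members had changed, where 33.7% of all genes were called: *Fcgr2b* and *Fcer1g* were lower and *Ms4a2* was higher. Against undifferentiated cells, 1 of 6 was called at IL3-OHT 4h (22.1% of all genes), 5 of 6 at 12h (28.7%), 3 of 6 at 72h (27.4%) and 2 of 6 at 168h (25.4%). Against GCSF 0h, 1 of 6 was called at GCSF-OHT 4h (5.62% of all genes), 1 of 6 at 12h (11.4%), 2 of 6 at 72h (11.9%) and 3 of 6 at 168h (24.8%). Over a whole course 5 of 6 changed in IL3-OHT, all but *Fcer1g*, beside 69.7% of all genes. In GCSF-OHT 5 of 6 changed as well, all but *Fcgr1*, beside 47.7% of all genes. The IL3-OHT comparisons share the undifferentiated libraries and the GCSF-OHT comparisons share those of GCSF 0h, so their errors are not independent.

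**Figure D2:**
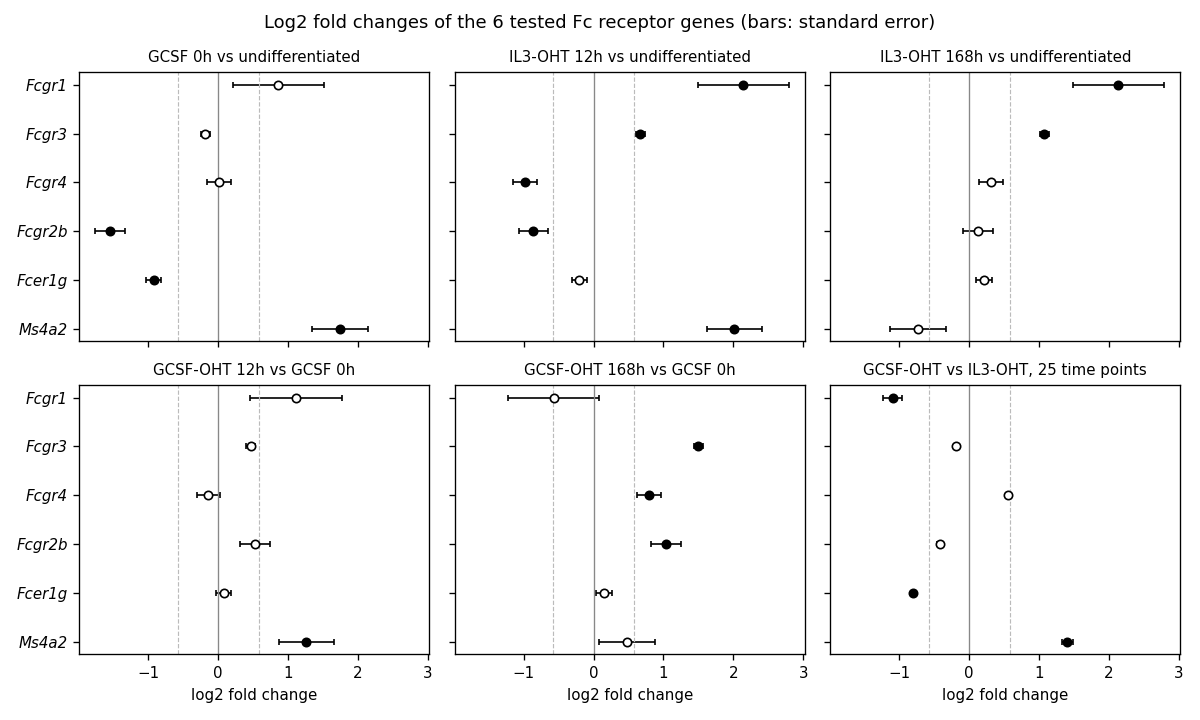
Log2 fold changes of the 6 tested members in 6 comparisons, with bars of 1 SE from limma. Filled points were called DEGs, and dashed lines mark the threshold of 0.58 in either direction. *Fcgr3* was called at 168h in both courses and *Fcer1g* in neither.

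*Fcgr3*, which encodes an activating low-affinity IgG receptor, rose in both courses. Its normalized counts were 1120, 1283 and 1081 in undifferentiated cells and 2387, 2520 and 2434 at IL3-OHT 168h. Every library of the latter was above every library of the former, and the log2 fold change was 1.08 (SE 0.06, adjusted p = 7.73e-33). In GCSF-OHT it went from 1024, 1011 and 1024 at GCSF 0h to 2799, 3002 and 2860 at 168h, again without overlap, a 2.83-fold rise on the log2(normalized count + 1) scale (SE 0.06, adjusted p = 1.98e-45). The pre-treatment itself left *Fcgr3* at a log2 fold change of -0.18, below the fold threshold.

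*Fcgr3* was called earlier in IL3-OHT, and whether the early changes differed between the courses was not tested. In IL3-OHT the level was 1389 ± 23.5 (SD, n = 3) within 1h and 1593 ± 83.2 (n = 3) at 4h, and it reached 1841 ± 73.7 (n = 3) at 12h, where *Fcgr3* was called with a log2 fold change of 0.67 (adjusted p = 1.55e-18). At 72h it was 2115 ± 112.7 (n = 3). In GCSF-OHT it stood at 1086 ± 60.5 (n = 3) at 4h and 1408 ± 21.2 (n = 3) at 12h, and the 12h value (log2 fold change 0.46, adjusted p = 9.96e-11) fell short of the fold threshold. From 72h to 168h *Fcgr3* rose further in GCSF-OHT, by 0.68 on the log2 scale (adjusted p = 2.13e-18), while in IL3-OHT the change over the same interval was 0.21 (adjusted p = 0.00308) and was not called. The highest of the 56 group means was GCSF-OHT 144h with 3086 ± 108.5 (n = 3) and the lowest was GCSF 0h with 1020 ± 7.51 (n = 3). In the order of group means, 47 of 55 neighbors lay within the larger of their SDs.

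*Fcgr4*, which encodes an activating receptor of intermediate affinity, fell early in IL3-OHT and rose late in GCSF-OHT. The undifferentiated libraries had 86.4, 90.01 and 101.6 normalized counts and those of IL3-OHT 12h had 51.2, 47.7 and 40.3, a log2 fold change of -0.99 (SE 0.17, adjusted p = 2.19e-07) with no overlap. The lowest mean of all groups was 36.7 ± 5.75 (SD, n = 3) at IL3-OHT 56h, and by 168h the level had come back to 118.8, 112.5 and 114.05, which was 0.31 above undifferentiated cells on the log2 scale (adjusted p = 0.117) and not called. From 72h to 168h *Fcgr4* rose by 0.80 on the log2 scale in IL3-OHT (adjusted p = 4.22e-05). In GCSF-OHT no such early drop was called: the libraries of GCSF 0h had 101.7, 84.99 and 93.2 and those of 12h had 104.5, 93.5 and 61.5, which overlap. At GCSF-OHT 168h they had 158.4, 200.8 and 134.3, all above GCSF 0h, with a log2 fold change of 0.80 (SE 0.17, adjusted p = 2.42e-05). Without the replicate 2 libraries, one of which held the 200.8, that change was 0.58 and no longer past the fold threshold. The group mean at GCSF-OHT 168h, 164.5 ± 33.7 (n = 3), was the highest for *Fcgr4*, and 54 of 55 neighbors in the order lay within the larger of their SDs.

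*Fcgr1*, the high-affinity IgG receptor of monocytes and macrophages, had few reads in every group. More than 3 reads were found in 52 of 81 IL3-OHT libraries and in 13 of 78 GCSF-OHT libraries, and the most reads in any library were 24 in IL3-OHT and 10 in GCSF-OHT. The undifferentiated libraries had 0, 1 and 0 reads. Those of IL3-OHT 168h had 5, 6 and 3 reads, so that 14 reads stood against 1, a ratio of 12.1 after correction for depth with an exact 95% interval from 1.84 to 511.4 for counting error only. At IL3-OHT 12h there were 22 reads, 16 of them in replicate 1, a ratio of 17.98 (2.91 to 742.2). Limma called *Fcgr1* at IL3-OHT 12h, 72h and 168h with log2 fold changes of 2.14, 2.02 and 2.14 (adjusted p = 0.00321, 0.00576 and 0.00354), which depend on the pseudocount at such low counts. Without the replicate 1 libraries none of them was past the threshold (adjusted p = 0.187, 0.0592 and 0.0528), and that at 72h was also lost without the replicate 3 libraries (adjusted p = 0.150).

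In GCSF-OHT no change of *Fcgr1* was called. The GCSF 0h libraries held 1, 6 and 0 reads and those of GCSF-OHT 168h held 1, 0 and 1, a ratio of 0.318 with an interval from 0.0322 to 1.67. The highest group mean in GCSF-OHT was 4.42 ± 2.22 (SD, n = 3) at 40h. The highest in IL3-OHT was 16.3 ± 9.21 (n = 3) at 96h, one of the time points left out of the tests, followed by 11.1 ± 4.26 (n = 3) at 48h. Of the neighbors in the order of *Fcgr1* group means, 53 of 55 lay within the larger of their SDs.

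*Fcgr2b*, the inhibitory receptor, fell under GCSF alone and then moved in opposite directions in the first hours of OHT. Its normalized counts were 109, 107 and 76.8 in undifferentiated cells and 25.9, 39.8 and 32.6 at GCSF 0h. The groups did not overlap, and the log2 fold change was -1.55 (SE 0.21, adjusted p = 1.14e-10). GCSF 0h had the lowest mean of all 56 groups, 32.8 ± 6.98 (SD, n = 3). In IL3-OHT the mean went from 97.6 ± 18.02 (n = 3) to 87.8 ± 2.72 (n = 3) at 1h, 70.8 ± 5.42 (n = 3) at 2h and 53.8 ± 10.2 (n = 3) at 4h, where the log2 fold change was -0.85 (adjusted p = 3.03e-04). In GCSF-OHT it went up, to 65.1 ± 16.7 (n = 3) at 1h and 61.03 ± 8.75 (n = 3) at 4h, which was 0.89 above GCSF 0h on the log2 scale (adjusted p = 4.36e-04). By 12h the courses had come close, with 44.98, 54.2 and 59.3 in IL3-OHT and 45.3, 45.8 and 49.9 in GCSF-OHT. The call at IL3-OHT 4h was lost without the replicate 2 libraries (log2 fold change -0.62, adjusted p = 0.0588).

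From 72h to 168h *Fcgr2b* was called higher in GCSF-OHT and not in IL3-OHT, and whether these changes differed was not tested. In GCSF-OHT the log2 fold change was 0.61 (SE 0.21, adjusted p = 0.0130), and it stayed called in 9 of 13 alternatives. In IL3-OHT it was 0.50 (SE 0.21, adjusted p = 0.0499), below the fold threshold. At IL3-OHT 168h the libraries had 109.3, 105.2 and 101.8, the highest group mean of all with 105.4 ± 3.74 (SD, n = 3), and the log2 fold change against undifferentiated cells was 0.13 (adjusted p = 0.651). At GCSF-OHT 168h they had 65.9, 66.5 and 69.3, above all libraries of GCSF 0h, with a log2 fold change of 1.04 (SE 0.21, adjusted p = 9.15e-06). Against undifferentiated cells the same libraries were at a log2 fold change of -0.51 (adjusted p = 0.0262), which is short of the fold threshold. In the order of group means 54 of 55 neighbors of *Fcgr2b* lay within the larger of their SDs.

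**Figure D3:**
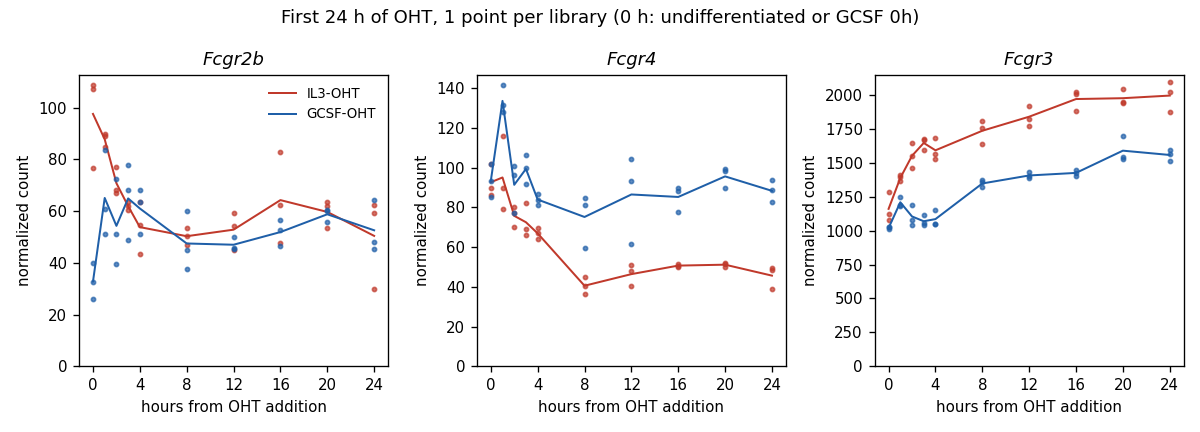
Normalized counts of *Fcgr2b*, *Fcgr4* and *Fcgr3* from 0 to 24 hours after OHT addition, with 1 point per library and lines through the means (IL3-OHT red, from undifferentiated cells, and GCSF-OHT blue, from GCSF 0h). *Fcgr2b* started at means of 97.6 and 32.8 and the courses came together by 12h, whereas *Fcgr4* dropped to 40.5 at 8h in IL3-OHT and the means of *Fcgr3* were higher in IL3-OHT at each time from 1h on.

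The ratio of the activating *Fcgr3* to the inhibitory *Fcgr2b* in the same library, which is not corrected for length and is used only for its changes, differed between the groups. It was 12.1 ± 1.89 (SD, n = 3) in undifferentiated cells, with libraries from 10.3 to 14.1, and 32.1 ± 7.12 (n = 3) after the GCSF pre-treatment, with libraries from 25.4 to 39.6. In IL3-OHT it was 30.3 ± 5.40 (n = 3) at 4h and 35.2 ± 4.35 (n = 3) at 12h and ended at 23.2 ± 1.201 (n = 3) at 168h. In GCSF-OHT it was 17.2 ± 4.98 (n = 3) at 3h and 30.004 ± 1.73 (n = 3) at 12h, and ended at 42.95 ± 1.98 (n = 3) at 168h. The difference of the log2 ratio was 0.95 between IL3-OHT 168h and undifferentiated cells, 0.46 between GCSF-OHT 168h and GCSF 0h and 0.88 between GCSF-OHT and IL3-OHT at 168h. Each pair of groups was without overlap, and the two-sided exact permutation p was 0.1 in all 3, the smallest that 3 libraries against 3 can give. Reads shared between these genes could move the ratio, and their part in it was not tested.

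**Figure D4:**
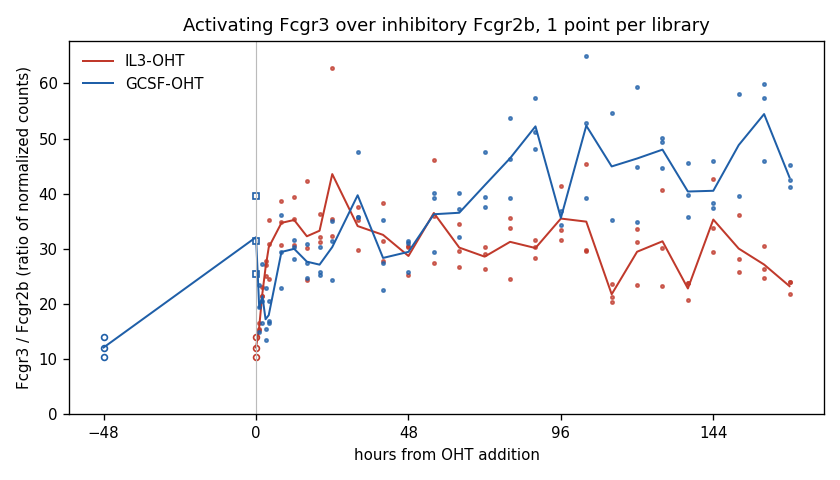
Ratio of *Fcgr3* to *Fcgr2b* normalized counts, 1 point per library, against hours from OHT addition, with lines through the means (IL3-OHT red, GCSF-OHT blue, start groups as open symbols). The ratio went from 12.1 to 30.3 at 4h and 23.2 at 168h in IL3-OHT, and from 32.1 to 17.2 at 3h and 42.95 at 168h in GCSF-OHT.

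*Fcer1g*, the gamma chain on which the activating IgG receptors and the IgE receptor depend, was lower under GCSF and was not called at 168h of OHT in either course. The undifferentiated libraries had 243.4, 215.8 and 199.7 normalized counts and those of GCSF 0h had 130.3, 109.8 and 106.2. The groups did not overlap, and the log2 fold change was -0.92 (SE 0.11, adjusted p = 1.59e-12). The IL3-OHT 168h libraries had 250.6, 247.03 and 266.7, a log2 fold change of 0.22 (adjusted p = 0.0972), and the GCSF-OHT 168h libraries had 121.01, 133.01 and 130.1, a log2 fold change of 0.15 (adjusted p = 0.269). Its largest change from the start in IL3-OHT was 0.55 on the log2 scale, at the highest group mean of 321.6 ± 29.8 (SD, n = 3) at 136h. It was 0.61, 0.61 and 0.59 without replicates 1, 2 and 3 in turn, and *Fcer1g* then counted among the genes that changed over this course. In GCSF-OHT the level ran from 97.4 ± 9.80 (n = 3) at 2h, the lowest of all groups, to 188.1 ± 23.6 (n = 3) at 48h, 0.70 above GCSF 0h on the log2 scale (adjusted p for change over the course 7.22e-16), and it was back at 128.0 ± 6.25 (n = 3) at 168h. Of 55 neighbors in the order, 54 lay within the larger of their SDs. The gamma chain was thus not called at 168h where *Fcgr3* was.

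Of the IgE receptor chains, *Fcer1a* was not detected, as above, and *Ms4a2*, whose product amplifies signaling of the receptor, was present at low counts and rose and fell. Undifferentiated cells had 3.93, 3.07 and 4.73 normalized counts of *Ms4a2* (3, 3 and 4 reads) and GCSF 0h had 22.2, 10.6 and 14.9 (24, 12 and 16 reads). That is 52 reads against 10, a ratio of 4.10 with an exact 95% interval from 2.06 to 9.04 for counting error, and it was called (adjusted p = 7.00e-05). In IL3-OHT *Ms4a2* was called at 12h (log2 fold change 2.01, adjusted p = 5.29e-06) and at 72h (2.29, adjusted p = 3.11e-07). It peaked at 48h with 49.5 ± 10.1 (SD, n = 3) and fell back to 3.56, 0.915 and 1.89 at 168h (3, 1 and 2 reads), at or below the floor. From 72h to 168h, 63 reads went to 6, a ratio of 0.0825 with an interval from 0.0292 to 0.190 (adjusted p = 1.66e-10). In GCSF-OHT the highest mean was 66.2 ± 25.7 (n = 3) at 40h, and the level was 55.5 ± 8.33 (n = 3) at 72h, which was 1.79 above GCSF 0h on the log2 scale (adjusted p = 1.06e-04). It fell to 19.7, 15.6 and 32.5 at 168h, which was -1.31 against 72h (adjusted p = 0.00461) and 0.48 against GCSF 0h (adjusted p = 0.342). The call at GCSF-OHT 12h (1.26, adjusted p = 0.00696) was lost without the replicate 2 libraries (0.89, adjusted p = 0.272), and so was that of 168h against 72h (-1.2, adjusted p = 0.104). All 55 neighbors in the order of *Ms4a2* group means lay within the larger of their SDs.

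Markers of mast cells and basophils, cells that carry the complete IgE receptor, were present in part. Of 17 markers 7 passed the filter, namely *Kit*, *Mcpt8*, *Hdc*, *Gata2*, *Mitf*, *Il1rl1* and *Cd200r3*. The proteases *Cpa3*, *Prss34*, *Tpsb2*, *Tpsab1*, *Cma1*, *Mcpt4*, *Mcpt1* and *Mcpt2*, and with them *Il4* and *Mrgprb2*, had at most 5 reads in any library, and *Prss34* had none. The summed level of the 17 ran from 4580 to 4776 in undifferentiated cells, from 4418 to 4465 at GCSF 0h, from 1821 to 2007 at IL3-OHT 168h and from 2978 to 3031 at GCSF-OHT 168h, and most of it was *Kit*, which progenitors also express. At 168h 1 of the 7 rose and 4 fell in IL3-OHT, beside 10.2% of all genes called higher and 15.2% called lower (*Mitf* by 0.62, and among those that fell *Gata2* with -2.42 and *Cd200r3* with -1.98), with a list median of -1.63. In GCSF-OHT 2 rose, *Mitf* by 0.77 and *Il1rl1* from a mean of 0.311 to 2.99, and 3 fell, among them *Mcpt8* (-1.07) and *Gata2* (-1.39), with a list median of -0.18, beside 12.1% called higher and 12.6% called lower. The part of such cells in the levels of *Ms4a2* was not tested.

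At 168h the gamma chain and the inhibitory *Fcgr2b* were lower in GCSF-OHT than in IL3-OHT and *Ms4a2* was higher, while the difference in *Fcgr1* rested on few reads and was lost without 1 replicate number. Of the 6 tested members 4 were called, where 28.1% of all genes were called. *Fcer1g* was lower in GCSF-OHT, with a log2 fold change of -0.99 (SE 0.11, adjusted p = 1.02e-13), and so was *Fcgr2b* with -0.64 (SE 0.21, adjusted p = 0.00626). *Fcgr1* had 2 reads in the GCSF-OHT libraries and 14 in those of IL3-OHT, a ratio of 0.145 with an interval from 0.0160 to 0.631 (adjusted p = 0.0118, and 0.149 without the replicate 2 libraries). *Ms4a2* was higher in GCSF-OHT, 70 reads against 6, a ratio of 11.8 with an interval from 5.17 to 33.4 (adjusted p = 1.28e-10). *Fcgr3* (0.24, adjusted p = 4.15e-04) and *Fcgr4* (0.49, adjusted p = 0.00967) were below the fold threshold.

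Over the 25 time points after OHT that both courses share, 3 of 6 members were called, beside 24.5% of all genes. Relative to IL3-OHT, the mean log2 difference in GCSF-OHT was -0.80 for *Fcer1g* (SE 0.02), -1.10 for *Fcgr1* (0.13) and 1.41 for *Ms4a2* (0.08), each with an adjusted p of 4.56e-13 or lower. That of *Fcgr1* was -0.55 with a pseudocount of 5 and then short of the fold threshold. *Fcgr4* was higher in GCSF-OHT by 0.56 (adjusted p = 2.11e-31), just under the threshold of 0.58, and past it by edgeR's quasi-likelihood test (0.59) and without the replicate 3 libraries (0.61).

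The change from the start of each course to 168h of OHT differed between the courses for 2 of 6 members, where 25.7% of all genes were called. For *Fcgr2b* the change was larger in GCSF-OHT by 0.91 on the log2 scale (SE 0.30, adjusted p = 0.00759), from 0.13 in IL3-OHT to 1.04 in GCSF-OHT, and it was not called without the replicate 1 libraries (0.71, adjusted p = 0.0741). For *Fcgr1* the difference was -2.71 (SE 0.92, adjusted p = 0.0108), which rests on few reads and was not called without the replicate 2 libraries (-1.90, adjusted p = 0.198). For *Fcgr3* the change was larger in GCSF-OHT by 0.42 (adjusted p = 1.48e-05), below the fold threshold, and for *Fcgr4* by 0.48 (SE 0.24, adjusted p = 0.0924). For *Fcer1g* the difference was -0.06 with an SE of 0.16.

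From undifferentiated cells to GCSF-OHT 168h, pre-treatment included, 4 of 6 members were called, with 39.1% of all genes. *Fcgr3* was higher by 1.32 on the log2 scale, *Fcgr4* by 0.81 and *Ms4a2* by 2.22, while *Fcer1g* was lower, with a log2 fold change of -0.77 (adjusted p from 1.14e-40 for *Fcgr3* to 1.51e-05 for *Fcgr4*). Between 72h and 168h 2 of 6 were called in IL3-OHT, with 10.4% of all genes, and 4 of 6 in GCSF-OHT, with 11.4%. In IL3-OHT these were *Fcgr4* and *Ms4a2*, and in GCSF-OHT *Fcgr2b*, *Fcgr3*, *Fcgr4* and *Ms4a2*. The late change of *Fcgr2b* in GCSF-OHT (0.61, adjusted p = 0.0130) lay close to the threshold and was not called when any 1 replicate number was left out, with adjusted p from 0.0469 to 0.0705 and, at 0.0469, a log2 fold change of 0.57. The median log2 fold change of all genes was -0.11 between undifferentiated cells and GCSF-OHT 168h, and these changes stand beside that shift.

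Genes that act beside and after the gamma chain were called at 168h of OHT. *Tyrobp*, which encodes the related ITAM adaptor DAP12, had 3 reads in the 3 undifferentiated libraries and 865 at IL3-OHT 168h, a ratio of 249.1 with an exact 95% interval from 84.95 to 1210. At GCSF 0h it had 2 reads and at GCSF-OHT 168h 662, a ratio of 368.3 with an interval from 101.5 to 3047. *Syk*, the kinase that binds phosphorylated ITAMs, had no read in undifferentiated cells or at GCSF 0h. It reached 18.7 ± 0.370 (SD, n = 3) at IL3-OHT 168h and 51.5 ± 5.31 (n = 3) at GCSF-OHT 168h, at least 5.38-fold and at least 19.04-fold higher against the floor of 3 reads per library. Both genes were called in both courses (adjusted p of 4.52e-16 or lower). Of 6 signaling adaptors other than *Fcer1g*, 5 were tested, among them *Hcst*, whose product has no ITAM. At IL3-OHT 168h 1 rose, with 10.2% of all genes called higher, and 2 fell, with 15.2% called lower: the B cell receptor chains *Cd79a* (-1.59) and *Cd79b*, which was at 0 in all 3 libraries. At GCSF-OHT 168h 2 rose, with 12.1% of all genes called higher, and 0 fell by limma, edgeR or DESeq2, also at an unadjusted p under 0.05, with 12.6% called lower, the other that rose being *Hcst*, whose product DAP10 recruits phosphatidylinositol kinase in place of SYK, with 1.04. The median of these adaptors was -1.59 in IL3-OHT and 0.53 in GCSF-OHT, where that of all genes was -0.03 and 0.00.

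Of 31 kinases and adaptors downstream of ITAMs 30 were tested. At IL3-OHT 168h 7 rose and 3 fell, with a median log2 fold change of 0.27, beside 10.2% of all genes called higher and 15.2% called lower. At GCSF-OHT 168h 12 rose and 0 fell, with a median of 0.54, beside 12.1% called higher and 12.6% called lower. The same shares stand beside the counts of inhibitory genes that follow. In GCSF-OHT 2 of them were lower at an unadjusted p under 0.05 by limma and 0 were called lower by edgeR or DESeq2, and in IL3-OHT each of these tools called 5 lower. *Btk*, a kinase downstream of SYK, rose by 3.05 in IL3-OHT, where *Src* (-2.55) and the phosphatidylinositol kinase subunit *Pik3r1* (-1.10) fell. *Pik3r5*, another such subunit, was called higher in GCSF-OHT, from 0 in all GCSF 0h libraries to a mean of 7.68. Of 15 phosphatases and receptors of inhibitory signaling, all tested, 8 rose and 0 fell in IL3-OHT (median 0.89, with 1 lower at an unadjusted p under 0.05 by limma and 0 called lower by edgeR or DESeq2), and 9 rose and 1 fell in GCSF-OHT (median 1.64). The ITIM-bearing receptor *Pirb* rose by 7.24 in IL3-OHT and 7.79 in GCSF-OHT, and *Clec12a*, another such receptor, by 7.07 and 6.96. *Ptpn6*, the phosphatase SHP-1, rose by 1.12 and 1.64, whereas *Inpp5d*, the phosphatase that *Fcgr2b* recruits, was 0.34 and 0.44 higher and not called in either course. In the GCSF pre-treatment *Inpp5d* had risen by 0.96 (adjusted p = 3.07e-32) while *Fcgr2b* fell. *Dok2*, an adaptor that dampens signaling, fell in GCSF-OHT (-0.80).

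Of 11 other Fc receptor genes 5 were tested. At IL3-OHT 168h 0 rose by limma (0 at an unadjusted p under 0.05, 0 called by edgeR and 1 by DESeq2) and 2 fell (1 called lower by edgeR and 1 by DESeq2), *Fcrlb* (-2.15) and *Fcrla*, which went from a mean of 1.66 to 0, under the floor in both groups. At GCSF-OHT 168h 1 rose, *Fcer2a*, the low-affinity IgE receptor (a log2 fold change of 1.63, from a mean of 1.85 to 6.81), and 1 fell, *Fcgrt*, the neonatal Fc receptor that protects IgG from degradation. *Fcgrt* went from 448.1 ± 79.4 (SD, n = 3) at GCSF 0h to 103.7 ± 28.5 (n = 3), a log2 fold change of -2.13 (adjusted p = 4.89e-28), and was at -0.57 in IL3-OHT, which was not called. DESeq2 called 2 of the list lower in GCSF-OHT and edgeR 1. The list medians were -0.57 in IL3-OHT and -0.30 in GCSF-OHT, and the shares of all genes called were 10.2% higher and 15.2% lower in the former and 12.1% and 12.6% in the latter.

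The labelled fates were checked against marker lists. Of 14 monocyte and macrophage markers 7 rose and 2 fell at IL3-OHT 168h, with *Adgre1* higher by 5.20 and *Ccr2* by 5.17 and with *F13a1* (-1.05) and *Ly6c2* (-0.61) lower, beside 10.2% of all genes called higher and 15.2% called lower. At GCSF-OHT 168h 8 rose and 3 fell, with *Adgre1* at 5.42, *Cx3cr1* at 4.69, *Ly6c2* at -1.07 and *F13a1* at -0.74, beside 12.1% called higher and 12.6% called lower (list medians 0.71 and 1.66). Of 16 neutrophil markers 6 rose and 4 fell in IL3-OHT and 10 rose and 4 fell in GCSF-OHT, with *Mmp9* higher by 5.37 and 8.38 (list medians 0.32 and 1.13). Those that fell included the proteases of primary granules *Elane* (-1.91) and *Ctsg* (-1.63) in IL3-OHT and *Ctsg* (-1.72) and *Prtn3* (-1.17) in GCSF-OHT. Some markers of each fate thus rose and others fell in both courses, each set against its own start. After the GCSF pre-treatment 3 monocyte and macrophage markers were higher and 7 lower (median -0.97), beside 13.0% and 20.7% of all genes. At 168h, GCSF-OHT against IL3-OHT, 11 neutrophil markers were higher and 1 lower (median 1.07). Of the monocyte and macrophage markers 4 were higher and 5 lower (median -0.63), beside 12.0% and 16.0% of all genes. Of 7 eosinophil markers 5 were tested and 1, *Ear2*, rose in each course, from 0 to means of 4.42 in IL3-OHT and 3.16 in GCSF-OHT, where edgeR called 2 higher. Of 10 lymphoid, erythroid and megakaryocyte markers 2 were tested, *Klrb1c* and *Itga2b*. Both fell in IL3-OHT, and in GCSF-OHT limma called neither, while edgeR and DESeq2 each called 1 lower. The part of cell composition in the values of the Fc receptors was not tested.

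The members' courses were compared with those of other genes. Over the means of the 54 groups in the fit, which are successive time points and not independent, the most alike among 12293 genes by Pearson's r of log2 values were *Fam111a* (r = 0.94), *Klra2* (0.93) and *S100a6* (0.91) for *Fcgr3*. They were *Ceacam10* (0.89), *B230303A05Rik* (0.83) and *Nrp1* (0.83) for *Fcgr4*, and *Lgals1* (0.82), *Il1rl2* (0.82) and *Adk* (0.80) for *Fcgr1*. For *Fcgr2b* they were *Ccl3* (0.81), *Arhgef3* (0.79) and *Tgoln1* (0.79), for *Fcer1g* *Sod1*, *Abca8b* and *Abca9* (each 0.92), and for *Ms4a2* *Rad54l* (0.91), *Zfp114* (0.90) and *Hmgn1* (0.90). Between members, r over the same groups was highest for *Fcgr2b* and *Fcer1g* (0.63), followed by *Fcgr1* and *Fcer1g* (0.50), and lowest for *Fcgr2b* and *Ms4a2* (-0.69). *Fcgr3* and *Fcgr4*, neighbors on the chromosome, had an r of 0.13. These are descriptions, with no test.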

How the data were processed

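Poly-A RNA of 165 PUER libraries was measured. The authors quantified reads with Salmon (selective alignment) on GRCm38 and deposited counts divided by DESeq2 size factors (median of ratios), a normalized signal and not raw counts. Divided by the value of 1 read, 100% of values came out whole within a relative tolerance of 1e-06, so reads were recovered. Per the labels 1 group, GCSF 0h, has titles that name OHT, but its descriptions place it before OHT. All columns of the table were used (0 left out). From the signal, log2(normalized count + 1) was fitted in limma 3.58.1 (R 4.3.3) with 1 mean per group, a trended prior and Benjamini-Hochberg adjustment over 17414 genes with at least 5 in at least 1 library. The fit held 159 libraries in 54 groups, without IL3-OHT 96h and 144h. Thresholds for DEGs were 0.05 (adjusted p) and 0.58 (log2 fold change in either direction). As alternatives, pseudocounts of 0.5 and 5, no filter, a mean of at least 10, upper-quartile scaling, all 56 groups, only the groups compared, a replicate block, each replicate number left out (where IL3-OHT and GCSF-OHT groups of 3 are then of 2), edgeR 4.0.16 (quasi-likelihood test on recovered reads, TMM) and DESeq2 1.42.0 (Wald test) were run. The study's own test was DESeq2's. Ratios of summed reads have exact 95% intervals (Clopper-Pearson), for counting error only. Ratios of *Fcgr3* to *Fcgr2b* were compared by exact permutation (scipy 1.17.1). Replicates were wells of one line, so p-values measure the spread between these wells and not that between the plates of different time points. The reads of each of 162 replicate pairs differed by more than counting noise (chi-square per gene 2.29 to 73.2). Members and lists were chosen with earlier results of these data known. Besides the members, *Syk*, *Tyrobp*, *Inpp5d*, *Ptpn6* and *Fcgrt* were always named. Apart from *Hdc*, *Kit* and markers with few or no reads, genes named from a list follow a rule. They are among the 2 that rose most and the 2 that fell most at 168h of those called in each course. The 3 genes most like each member by Pearson's r over group means were named as well. The study's PU.1 binding data and protein sequences were not used here. Scripts were tested on simulated data.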

Additional observations from a re-analysis of the deposited data

Results flagged for a closer look

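Limma's interaction term, which sets the change from the start to 168h in GCSF-OHT against that in IL3-OHT, was past the threshold for *Fcgr2b* and *Fcgr1*. For *Fcgr2b* the changes differed by 0.91 on the log2 scale, and for *Fcgr1* by -2.71. In GCSF 0h, the start of one of the courses, *Fcgr2b* was itself at the lowest mean of all groups, so its larger change there began from 32.8 ± 6.98 (SD, n = 3) against 97.6 ± 18.02 (n = 3) in undifferentiated cells. The *Fcgr1* difference came from 2 and 7 reads in the GCSF-OHT 168h and GCSF 0h libraries and from 14 and 1 reads in those of IL3-OHT 168h and undifferentiated cells.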

How the results depend on the processing

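Depth limited the low members: 3 reads were worth 1.96 to 5.51 normalized counts, which is more than most *Fcgr1* values in GCSF-OHT, so no absence can be read there. The replicate numbers did not pair the samples (mean correlation of deviations 1.416e-04 over 3825 pairs with the same number, from -0.180 to 0.154, and -6.983e-05 over 7650 pairs with different numbers). With the number as a replicate block, each comparison called the same count of members as without, for example 3 for GCSF 0h against undifferentiated cells and 5 for IL3-OHT 12h. The *Fcgr3* to *Fcgr2b* differences of 0.95, 0.46 and 0.88 are differences of means, which the block cannot change. Counts of called members were checked for staying within 1.5 times of the values above, and these ratio differences only for keeping their sign. That held in 223 recomputations, among them the ratio differences with the block, which could not move, and in 10 the count of called members moved further. With a mean of at least 10 the count was 2 in place of 1 at IL3-OHT 4h, where *Ms4a2* came in, and since *Fcgr1* was then not tested it was 1 in place of 2 both at IL3-OHT 168h and for the difference between the courses in the change to 168h. With a pseudocount of 0.5 it was 2 at IL3-OHT 4h. Without 1 replicate number at a time the count ran from 0 to 2 at IL3-OHT 4h, from 1 to 2 at IL3-OHT 168h, from 0 to 1 at GCSF-OHT 12h, from 2 to 4 for GCSF-OHT 168h against 72h, and from 1 to 2 for the difference between the courses in the change to 168h. Sign changes were seen 16 times, all in values that were not called, and 12 of them were in *Fcgr1*. In *Fcgr1* at GCSF-OHT 72h these were -0.16 by DESeq2, -0.15 by edgeR, -0.00247 with a pseudocount of 5, -0.19 without replicate 1 and, among the values that leave out a replicate, from -1.04 (replicate 3) to 1.43. For IL3-OHT 168h against 72h they were -0.10 by DESeq2, -0.12 by edgeR and from -0.60 (without replicate 2) to 0.89, and for GCSF-OHT 168h against undifferentiated cells -0.01 without replicate 3, in a range from -0.06 (without replicate 1) to 0.94. With each replicate left out in turn, *Fcgr1* ran from -0.85 to 0.52 at GCSF-OHT 4h and from -1.31 to 0.47 at 168h against GCSF 0h. Likewise *Fcgr4* ran from -0.10 to 0.08 at GCSF 0h and from -0.28 to 0.09 at GCSF-OHT 12h, *Fcer1g* reached 0.01 at IL3-OHT 72h without replicate 1, and *Fcgr2b* ran from -0.01 to 0.21 at IL3-OHT 168h. The cause was not tested. Of the other values for single genes, 1313 kept their direction and side of the threshold, 16 were no longer past it and 9 were newly past it.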

Other observations

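IL3-OHT 96h and 144h, which were left out of the tests, and the same times in GCSF-OHT followed renewals of medium and OHT by 8 h. So did 48h in both courses, which was kept in the tests. The highest means of *Ms4a2* in IL3-OHT (49.5) and of *Fcer1g* in GCSF-OHT (188.1) were at 48h, and no other tested member had its highest mean of a course there. At IL3-OHT 96h all 3 libraries were above every library of 88h and 104h for 3 members: the means at 88h, 96h and 104h were 2138, 2726 and 2219 for *Fcgr3*, 70.3, 87.8 and 59.4 for *Fcgr4*, and 234.2, 309.3 and 245.8 for *Fcer1g*. At GCSF-OHT 96h both libraries stood above their neighbors for a different set, with 38.1, 64.0 and 44.7 for *Fcgr2b*, 132.8, 163.5 and 135.2 for *Fcer1g*, and 39.7, 58.5 and 36.2 for *Ms4a2*. At 144h this was seen for *Fcgr3* in GCSF-OHT, with 2617, 3086 and 2736 at 136h, 144h and 152h, and for no member in IL3-OHT. These differences were not tested.

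*Hdc*, which encodes histidine decarboxylase, the enzyme that makes the histamine released on activation of the IgE receptor, had means of 37.7 in undifferentiated cells, 328.5 at GCSF 0h, 29.1 at IL3-OHT 168h and 285.5 at GCSF-OHT 168h. *Ms4a2* had 3.91, 15.9, 2.12 and 22.6 in the same groups. Among these groups both genes were higher in those kept in GCSF, but *Ms4a2* reached 49.5 ± 10.1 (SD, n = 3) at IL3-OHT 48h. *Hdc* was named outside the rule for lists, from the 17 mast cell and basophil markers. Of the 7 tested, 1 rose and 3 fell at GCSF 0h (list median -0.78), beside 13.0% of all genes called higher and 20.7% called lower.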
